A study of Mus musculus with 2 samples.

Results

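The genes described here encode subunits of the nuclear RNA polymerases and factors that help polymerase II to elongate transcripts. They were all protein-coding genes of the GENCODE vM1 annotation whose symbol starts with Polr1, Polr2, Polr3 or Supt, together with Tcea1, Tcea2, Tcea3, Tceb1, Tceb2, Tceb3, Ell, Ell2, Ell3 and Cdk9. This gave 43 of 22359 protein-coding genes, of which 5 belong to polymerase I (Pol I), 12 to polymerase II (Pol II), 10 to polymerase III (Pol III) and 16 to the elongation group. The study asked where the zinc finger protein Zfp322a binds in the genome of mouse embryonic stem (ES) cells. Chromatin of E14 ES cells, an untreated mouse line kept with serum and LIF and labelled with the background strain C57BL/6, was precipitated with an anti-ZNF322 antibody in 1 library and with anti-Rabbit IgG in the other. With 1 library per antibody and a single cell line, each test below compares these libraries and has no replicate check, and intervals of folds cover counting error only. After reads with a mapping quality under 25 were left out, 4151151 reads remained for Zfp322a and 3877802 for IgG (1.07 to 1).

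Pol I transcribes ribosomal RNA, Pol II messenger RNA, and Pol III transfer RNA and other short RNAs. Each enzyme has its own largest and second largest subunit, which form the catalytic centre, and shares several small subunits with the others. After initiation, Pol II often pauses near the transcription start site (TSS) until the kinase Cdk9 and other factors release it, and factors such as TFIIS (Tcea genes), elongin (Tceb genes) and the Ell proteins then speed it along the gene. The Supt genes are named after yeast suppressors of transposon insertions: Supt4h1 and Supt5h form the pausing and elongation factor DSIF, Supt6h and Supt16h encode histone chaperones that travel with polymerase, whereas Supt3h and Supt7l encode parts of SAGA-type coactivators and are elongation factors only by the naming rule used here.

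The stretches upstream of the TSS are printed for the genes with the clearest excess of Zfp322a reads (Polr2a, Polr2j, Polr3e and Tcea2) and for Polr2c, the tested gene with the lowest fold, as a contrast. Each runs from 250 bp before the TSS to the base before it, 5′ to 3′ on the strand of the gene, in the mm9 genome. The positions are chr11:69572140-69572389 (minus strand) for Polr2a, chr5:136592251-136592500 (plus) for Polr2j, chr7:128061008-128061257 (plus) for Polr3e, chr2:181414765-181415014 (plus, before the 5′-most TSS) for Tcea2 and chr8:97381100-97381349 (plus) for Polr2c. Capitals mark short patterns of known factors, searched for on both strands and listed here as far as they occur. These are GGGCGG, to which factors of the Sp family bind, CCAAT, the pattern recognised by NF-Y, CATGCGC, that of the factor Nrf1, TATAAA, the core of the TATA box, and CACGTG, the E box of Myc and related proteins. After the Polr3e sequence had been seen, a further pattern was added, GTTCGAANC, the B box inside transfer RNA genes that Pol III transcription factors recognise. In the annotation used, no TSS of another gene lay within 1000 bp of the TSS at which reads of these genes were counted.
Polr2a: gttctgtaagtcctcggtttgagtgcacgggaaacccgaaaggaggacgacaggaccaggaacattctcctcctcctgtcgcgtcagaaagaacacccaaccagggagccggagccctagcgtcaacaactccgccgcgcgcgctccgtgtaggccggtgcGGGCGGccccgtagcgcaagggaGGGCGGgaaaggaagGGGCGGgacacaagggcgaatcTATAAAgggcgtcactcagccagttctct
Polr2j: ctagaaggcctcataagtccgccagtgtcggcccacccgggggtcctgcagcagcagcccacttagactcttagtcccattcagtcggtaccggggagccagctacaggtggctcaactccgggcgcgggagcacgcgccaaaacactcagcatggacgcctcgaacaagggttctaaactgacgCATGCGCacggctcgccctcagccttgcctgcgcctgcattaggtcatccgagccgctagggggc
Polr3e: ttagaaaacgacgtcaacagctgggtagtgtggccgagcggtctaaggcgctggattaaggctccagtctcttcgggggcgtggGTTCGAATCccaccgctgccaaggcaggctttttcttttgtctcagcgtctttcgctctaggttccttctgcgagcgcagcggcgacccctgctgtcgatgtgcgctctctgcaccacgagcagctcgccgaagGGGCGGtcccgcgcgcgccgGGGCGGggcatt
Tcea2: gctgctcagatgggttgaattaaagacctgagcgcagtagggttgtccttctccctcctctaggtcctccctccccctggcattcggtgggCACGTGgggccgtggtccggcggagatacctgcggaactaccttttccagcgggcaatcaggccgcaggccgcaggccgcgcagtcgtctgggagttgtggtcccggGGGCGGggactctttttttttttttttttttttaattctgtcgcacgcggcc
Polr2c: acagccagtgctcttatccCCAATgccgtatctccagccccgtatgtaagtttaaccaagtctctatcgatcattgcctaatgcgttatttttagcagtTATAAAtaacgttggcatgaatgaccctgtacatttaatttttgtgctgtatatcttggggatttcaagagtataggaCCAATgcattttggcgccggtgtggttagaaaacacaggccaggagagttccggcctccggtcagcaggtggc
Polr2a holds GGGCGG 3 times, starting at -89, -66 and -51 bp, and TATAAA at -29 bp, close to the TSS. Polr2j has no GGGCGG and holds CATGCGC at -65 bp. Polr3e holds GGGCGG at -32 and -12 bp and the B box letters at -166 bp, so the promoter of this Pol III subunit gene contains a letter pattern of Pol III templates. Tcea2 holds CACGTG at -159 bp and GGGCGG at -52 bp. Polr2c has neither GGGCGG nor CACGTG, and holds CCAAT at -231 and -73 bp and TATAAA at -151 bp. These matches are letters in a window and were not tested as sites. The letters around the B box at Polr3e were not compared with those of transfer RNA genes. The Polr3e window may therefore also count reads of such a gene, which was not tested.

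Reads were counted by their 5′ end within 1000 bp on both sides of the TSS of each gene. Summed over the 43 genes there were 884 Zfp322a and 513 IgG reads, so that after scaling to the library totals the Zfp322a library had 1.61 times as many (95% interval 1.44 to 1.80). Over all protein-coding genes the same pooled fold was 1.41. Promoters in general therefore showed an excess too, and the difference between 1.61 and 1.41 was not tested. IgG reads were also more frequent at the TSSs of the polymerase and elongation genes than around them. Compared with the stretches centred 4000 bp away on both sides, the windows held 3.05 times as many Zfp322a reads and 2.03 times as many IgG reads, against 2.53 and 1.95 times for all genes. In those outer stretches the fold per read was 1.07 for these genes.

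**Figure D1:**
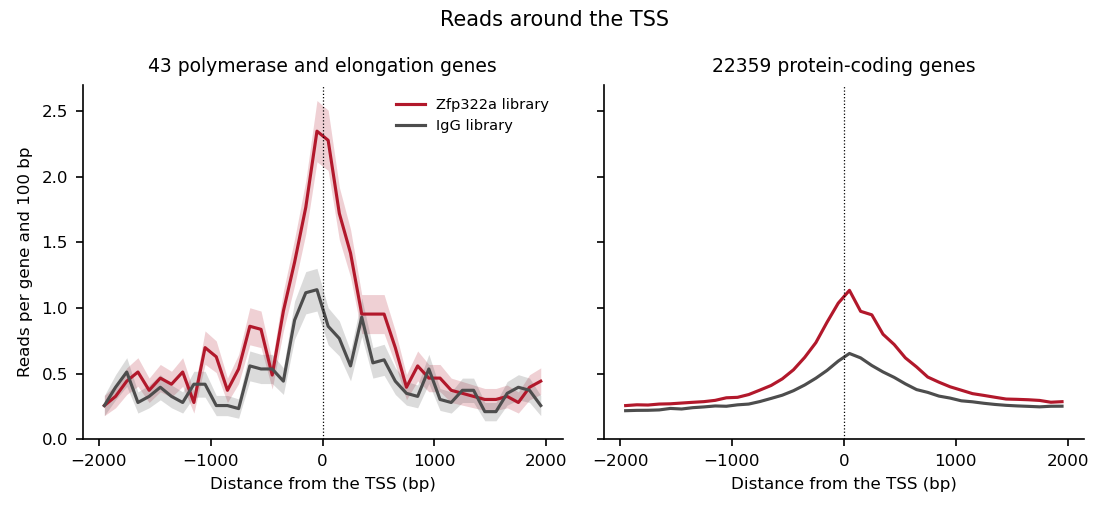
Reads per gene in bins of 100 bp (vertical axis) by distance from the TSS in bp (horizontal axis) for the 43 polymerase and elongation genes (left) and all 22359 protein-coding genes (right), in the Zfp322a (red) and IgG (grey) libraries, with bands of the square root of the count on both sides. Both libraries peak at the TSS, and in the 100 bp after it the 43 genes held 98 Zfp322a and 37 IgG reads.

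Around the TSS the excess was highest next to it. In the 100 bp before the TSS of the 43 genes 101 Zfp322a and 49 IgG reads were counted (fold 1.93, 1.36 to 2.77), and in the 100 bp after it 98 and 37 reads, a fold of 2.47 (1.68 to 3.72). From 300 to 400 bp after the TSS the libraries held 41 and 40 reads, a fold of 0.958 (0.604 to 1.52), and in the next 3 bins, to 700 bp, the folds were 1.53, 1.47 and 1.47. From 700 to 500 bp before the TSS they were 1.44 and 1.46. Every bin of 100 bp from 200 bp before to 300 bp after the TSS had an interval above 1, and farther out those from -400 to -300 bp and from -1000 to -900 bp did. The last of these held 27 and 11 reads, of which 18 and 4 were at the elongation group. Over all protein-coding genes the folds in the 100 bp before and after the TSS were 1.63 and 1.62. With far more reads, each of their bins out to 2000 bp had an interval above 1. The difference from all genes was not tested.

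A single gene had few reads. The median was 30 reads in both libraries together, with a range from 4 at Ell3 to 66 at Polr2b, and a gene with 30 reads would have needed a fold of at least 3.74 to pass the threshold used (adjusted p under 0.05). Genes with at least 10 reads in both libraries together were tested by the exact binomial test against the library totals, adjusted by Benjamini-Hochberg over 15943 genes. Of the 43 genes 42 were tested, and Ell3, with 1 Zfp322a and 3 IgG reads, was not. The fold per read of the tested genes ran from 0.467 to 3.74 with a median of 1.60 (interval of the median 1.32 to 1.87), beside a median of 1.401 over all tested genes. That interval was taken from the ranked folds of the genes, which are no replicates, and describes their spread. The fold was above 1 at 35 genes (83.3%, beside 73.9% of all tested genes) and below 1 at 7. It was above the median of all genes at 25, beside 7705 of all 15943 tested genes. A fold of at least 2 was reached by 11 of the 42 genes (26.2%), near the 23.7% of all tested genes, and a fold of at most 0.5 by 1 gene, Polr2c, against 3.36% of all genes. With an adjusted p under 0.05, 4 genes were higher in the Zfp322a library (9.52%, beside 5.09% of all tested genes) and 0 were lower (0.0502% of all genes). At an unadjusted p under 0.05 in the same exact binomial test, 12 of the 42 were higher and 0 lower, and 17.2% of all tested genes were higher.

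**Figure D2:**
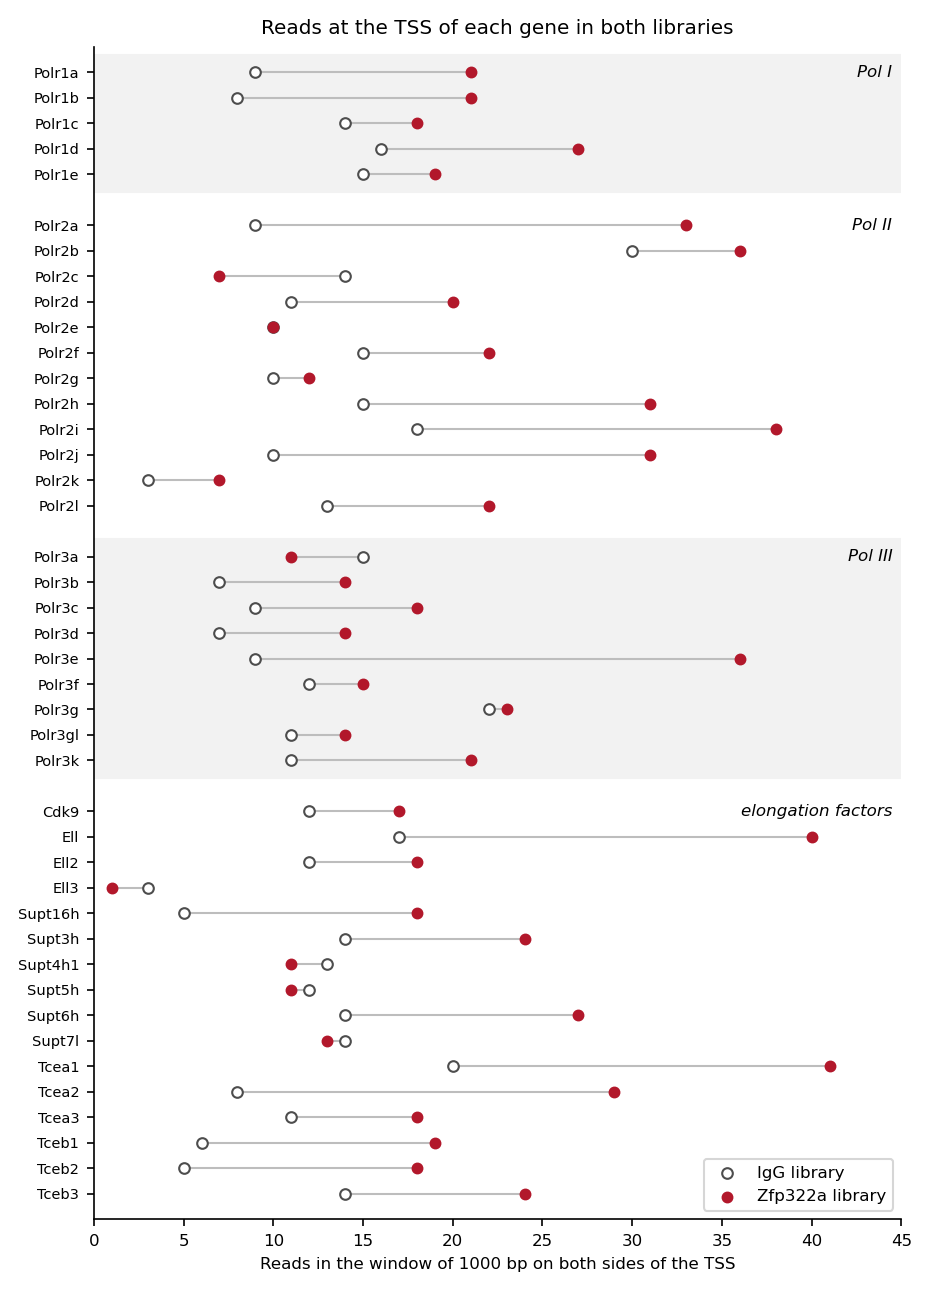
Reads within 1000 bp of the TSS (horizontal axis) for the genes of each polymerase and the elongation group, in the Zfp322a (filled) and IgG (open) libraries, joined by a line and ordered by polymerase. Polr3e, with 36 and 9 reads, shows the widest ratio among the tested genes, and Polr2c, with 7 and 14, has fewer Zfp322a than IgG reads.

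The genes of the Pol I enzyme had 106 Zfp322a and 62 IgG reads, a pooled fold of 1.60 (1.16 to 2.22), and a median fold of 1.58. Polr1a, the gene of the largest subunit, held 21 and 9 reads, a fold of 2.18. Polr1b, for the second largest, held 21 and 8, a fold of 2.45 (1.04 to 6.40). Both catalytic subunit genes thus had a fold above 2, yet with this depth the adjusted p was 0.311 and 0.190 in the exact binomial test, and neither passed. The Polr1a window also holds the TSS of Ptcd3, at -291 bp on the opposite strand, and so counts reads of that promoter. Its highest Zfp322a point was at -228 bp. The remaining members, Polr1c and Polr1d, whose products also serve Pol III, and Polr1e, had folds from 1.18 to 1.58. None of the 5 genes had an adjusted p under 0.05 (5.09% of all tested genes were higher) or a putative binding site as defined below (11.2% of all protein-coding genes).

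The Pol II genes had 269 Zfp322a and 158 IgG reads, a pooled fold of 1.59 (1.30 to 1.95), with single genes from 0.467 to 3.43. Polr2a, which encodes the largest subunit with the repeated tail that is phosphorylated during elongation, held 33 Zfp322a and 9 IgG reads. This was a fold of 3.43 (1.60 to 8.14) with an adjusted p of 0.0179 in the exact binomial test, and 5.06% of all tested genes had a fold as high. Within 500 bp of the TSS its fold was 3.55 with an adjusted p of 0.0944. Polr2b, for the second largest subunit, held 36 Zfp322a reads, more than Polr2a, but also 30 IgG reads, the highest IgG count among the 43 genes, and its fold was 1.12 (0.671 to 1.88). The TSS of 2610024G14Rik lies at -63 bp from that of Polr2b on the opposite strand, so its window also counts reads of that promoter. The genes of the catalytic pair thus had similar Zfp322a counts and differed in the control library.

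Polr2j, a small subunit that pairs with Polr2c during assembly of the enzyme, held 31 Zfp322a and 10 IgG reads, a fold of 2.90 (1.38 to 6.62). Its adjusted p was 0.04998 in the exact binomial test, just under the threshold, and Polr2j did not pass under 7 of the 10 alternatives, among them all mapping qualities (0.0525), no minimum of reads (0.0663) and the chromosome scaling (0.0717). Polr2c, its partner, held 7 and 14 reads, a fold of 0.467 (0.160 to 1.24) with an adjusted p of 0.432 in the same exact test. The ratios of the subunit pair lay on either side of 1, and the difference between them was not tested. Polr2c lies on chromosome 8, where the Zfp322a library held 0.760 times the IgG reads after scaling to library totals, and scaled to its chromosome its fold was 0.614. Polr2i held 38 and 18 reads, a fold of 1.97, and its window includes the TSS of Tbcb on the opposite strand.

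Subunits that several polymerases share (Polr1c, Polr1d, Polr2e, Polr2f, Polr2h, Polr2k and Polr2l) had 137 Zfp322a and 86 IgG reads, a pooled fold of 1.49 (1.13 to 1.97), and 0 of 7 passed the exact binomial test, with 1 of 7 at an unadjusted p under 0.05. Subunits of Pol II alone had 177 and 102 reads, a fold of 1.62 (1.26 to 2.09), and 2 of 7, Polr2a and Polr2j, passed. Over all tested genes, 5.09% were higher at an adjusted p under 0.05 in this test and 17.2% at an unadjusted p under 0.05. The difference between shared and particular subunits was not tested. Polr2h, a shared subunit, held 31 and 15 reads, a fold of 1.93 (1.01 to 3.85). Polr2k held 7 and 3 reads, and with 10 reads all would have had to be Zfp322a reads for it to pass.

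The Pol III genes had 180 Zfp322a and 113 IgG reads, a pooled fold of 1.49 (1.17 to 1.90). Polr3e, a subunit that with Polr3d helps Pol III to stop and start again, held 36 Zfp322a and 9 IgG reads. This was the highest fold among the 42 tested genes, 3.74 (1.77 to 8.82), with an adjusted p of 0.00745 in the exact binomial test, and 3.76% of all tested genes had a fold as high. In the window from -1000 to +100 bp its fold was again 3.74, with an adjusted p of 0.172. Polr3d, its partner, held 14 and 7 reads, a fold of 1.87, and did not pass. Polr3a, for the largest subunit, held 11 and 15 reads, a fold of 0.685 (0.285 to 1.60), and Polr3b, for the second largest, 14 and 7, a fold of 1.87 (0.706 to 5.47). Of the 10 Pol III genes, Polr3e was thus the one that passed, beside 5.09% of all tested genes. The differences from its partner and from the catalytic subunits were not tested. Polr3g and Polr3gl encode alternative forms of a subunit, the former of which is known for its high expression in ES cells. Polr3g held 23 and 22 reads, a fold of 0.977 (0.520 to 1.84), and Polr3gl 14 and 11, a fold of 1.19 (0.501 to 2.89). Both libraries had many reads at Polr3g, whose highest stretch reached 12 overlapping fragments in the Zfp322a library and 11 in the IgG library. Polr3c, Polr3f and Polr3k had folds from 1.17 to 1.87.

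The elongation group had 329 Zfp322a and 180 IgG reads, a pooled fold of 1.71 (1.42 to 2.06), and 5 of 15 tested genes had a fold of at least 2 (33.3%, beside 23.7% of all tested genes). Tcea2, a TFIIS form, held 29 Zfp322a and 8 IgG reads, a fold of 3.39 (1.51 to 8.57) with an adjusted p of 0.0348 in the exact binomial test. Tcea1, the widely expressed form, held 41 and 20 reads, the highest Zfp322a count of the 43 genes, and a fold of 1.92 (1.10 to 3.45). Its adjusted p was 0.170 in the exact binomial test, but 0.0352 within 500 bp of the TSS, where its fold was 3.39, and 0.0394 with reads of all mapping qualities. With the window from -1000 to +100 bp its adjusted p was 0.342, and scaled by promoters of the same GC content its fold was 1.27 with an adjusted p of 0.905. Tcea3 held 18 and 11 reads, a fold of 1.53. All members of the Tcea family thus had folds above the median of all genes, as 7705 of the 15943 tested genes did. The pooled fold of the family was 2.11 (1.43 to 3.16). In the stretches centred 4000 bp away its fold per read was 1.69, beside 1.07 for the 43 genes together.

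The elongin genes encode the subunits of a complex that stimulates elongation. Tceb1 (elongin C) held 19 Zfp322a and 6 IgG reads, a fold of 2.96, Tceb2 (elongin B) 18 and 5, a fold of 3.36, and Tceb3 (elongin A) 24 and 14, a fold of 1.60. Pooled, they had 61 and 25 reads, a fold of 2.28 (1.41 to 3.79). Although Tceb1 and Tceb2 had folds near those of Polr2a and Polr2j, they rested on fewer reads, and their adjusted p was 0.148 and 0.126 in the exact binomial test. Elongins B and C also serve in ubiquitin ligase complexes.

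The Supt genes fell on both sides of 1, with a pooled fold of 1.35 (0.990 to 1.85). Supt16h, which encodes the large subunit of the histone chaperone FACT, held 18 Zfp322a and 5 IgG reads, a fold of 3.36 (1.20 to 11.6) with an adjusted p of 0.126 in the exact binomial test. Supt6h held 27 and 14 reads, a fold of 1.80. Both DSIF genes had ratios near 1, with 11 and 13 at Supt4h1, a fold of 0.790 (0.321 to 1.91), and 11 and 12 at Supt5h, a fold of 0.856 (0.342 to 2.12). The coactivator genes Supt3h and Supt7l had folds of 1.60 and 0.867. Ell, a subunit of the super elongation complex, held 40 Zfp322a and 17 IgG reads, a fold of 2.20 (1.22 to 4.13) with an adjusted p of 0.0746 in the exact binomial test. Ell is also on chromosome 8, and scaled to that chromosome its fold was 2.89 with an adjusted p of 0.00852, whereas scaled by promoter reads it was 1.55 with an adjusted p of 0.665. Ell2 held 18 and 12 reads, a fold of 1.401, and Cdk9, the kinase of the release factor P-TEFb, 17 and 12, a fold of 1.32 (0.596 to 3.04).

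**Figure D3:**
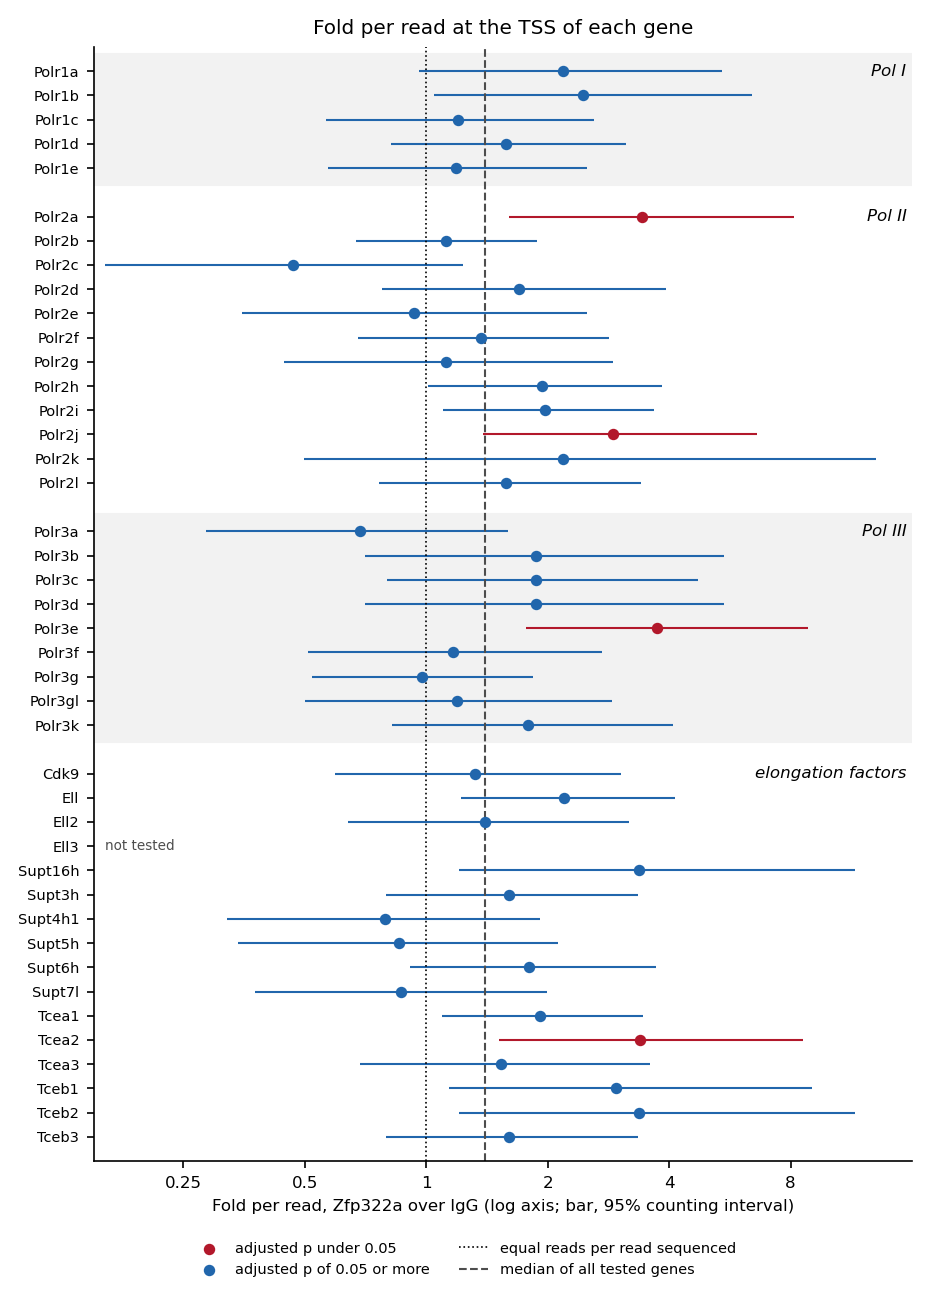
Fold per read, Zfp322a over IgG (horizontal log axis), with its 95% counting interval for the tested genes shown, in red where the adjusted p of the exact binomial test was under 0.05. The dotted line marks equal reads after scaling and the dashed line the median of all tested genes, 1.401, which lies below the intervals of Polr2a, Polr3e and Tcea2, above that of Polr2c and within those of the other genes shown.

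The 4 genes that passed did so against the library totals, a scale on which most promoters had an excess. Against the reads of all promoter windows, which lowers the median of all genes by 0.50 on the log2 scale, their folds were 2.64 at Polr3e, 2.42 at Polr2a, 2.39 at Tcea2 and 2.05 at Polr2j, and none passed, with adjusted p from 0.218 to 0.501 in the exact binomial test. On that scale 82 of the 15943 genes were still higher (0.514%). Polr2a, Polr2j and Polr3e were also named by the study for this experiment, so their excess here is no independent evidence.

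Putative binding sites were rebuilt after the criteria of the study's methods, as stretches in which reads extended to 300 bp overlapped at a height of at least 9 in the Zfp322a library and at least 3 times the IgG height. Such a site overlapped the window of 9 of the 43 genes (20.9%), against 11.2% of all protein-coding genes and 15.8% of those with enough reads to be tested. The 9 genes were Ell, Polr2a, Polr2h, Polr2j, Polr3e, Supt16h, Supt6h, Tcea2 and Tceb3, which comprises 3 of the Pol II genes, 1 of the Pol III genes, 5 of the elongation group and 0 of the 5 Pol I genes. With a fold of heights of at least 5 in place of 3, 4 of the 43 genes (9.30%) had a site, against 4.39% of all genes.

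The sites differed in height and place. Polr3e had the highest, with 20 overlapping Zfp322a fragments against 5 IgG fragments, over 546 bp at chr7:128061154-128061699, with its summit in an intron 202 bp after the TSS. That of Polr2j reached 17 against 5 at chr5:136592288-136592758, with the summit 16 bp after the TSS in the 5′ UTR. Polr2a had a site of 12 against 2 at chr11:69572107-69572389, which covers the GGGCGG and TATAAA letters printed above and peaks 15 bp before the TSS, and a narrow stretch of 9 against 2 centred 671 bp before it. Tcea2 had 16 against 1 at chr2:181414673-181415252, with the summit at -812 bp from the TSS used for counting but 68 bp after the 5′-most annotated TSS of the gene, which is why the promoter of that TSS is shown. Excess at Tcea2 was thus at the upstream promoter, and within 500 bp of the TSS used for counting the fold was 1.09, whereas around the 5′-most TSS it was 3.64 with an adjusted p of 0.00549 in the exact binomial test.

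The remaining sites reached heights from 10 to 14. Polr2h had 14 fragments against 4, with the summit 83 bp after its TSS beside the TSS of Clcn2, which starts on the opposite strand 81 bp after that of Polr2h. Tceb3 had 12 against 4 at 32 bp after the TSS, and Ell 12 against 4 at 79 bp before and 10 against 3 at 923 bp before. Supt16h had 10 against 1 at 95 bp before the TSS. Supt6h had 10 against 1 in an intron 461 bp after its TSS, on the far side of the TSS of Sdf2, which starts on the opposite strand 241 bp after that of Supt6h. Of the 11 summits, 7 lay within 100 bp of the TSS of the gene, if that of Tcea2 is counted from its 5′-most TSS.

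A further 10 genes had a stretch that reached a height of 9 but not the fold: Polr1a, Polr1b, Polr1d, Polr2b, Polr2f, Polr2i, Polr3g, Polr3k, Supt3h and Tcea1. Among them Tcea1 reached 17 fragments, as high as Polr2j, against 7 in the IgG library, and Polr3k 14 against 5. With a fold of heights of at least 2, 17 of the 43 genes had a site (39.5%, against 17.5% of all genes). The regions that the authors deposited overlapped the windows of 4 of the 43 genes, Polr2a, Polr2j, Polr3e and Tcea2, the same 4 that passed the test of the reads, against 3.06% of all genes. Those regions were made from the same reads and are no independent evidence. The study also tested amplicons at Polr2a (chr11:69572123-69572287) and Tcea2 (chr2:181414836-181414958) by PCR. It chose the loci for such PCR from peaks of this experiment. An excess of reads around the amplicons is therefore no independent evidence either. In 500 bp around the amplicon the deposited reads numbered 14 and 2 at Polr2a, a ratio per read of 6.54 (1.502 to 59.3), and 16 and 0 at Tcea2, which is at least 4.98-fold higher with 3 counts taken as the floor of the IgG library, while the exact 95% interval of the ratio starts at 3.603.

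**Figure D4:**
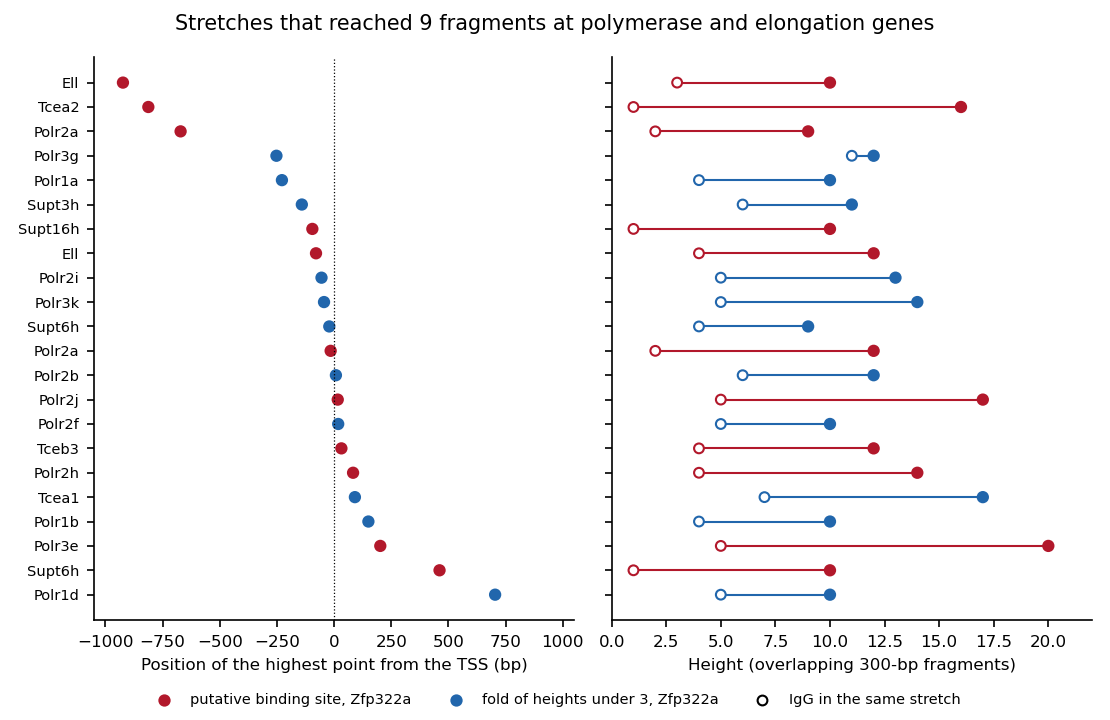
The 22 stretches at these genes in which at least 9 Zfp322a fragments overlapped, with the distance of the highest point from the TSS in bp (left) and the height in both libraries (right), filled for Zfp322a and open for IgG. Red stretches reached 3 times the IgG height and are putative binding sites; the heights of Polr3e (20 and 5), Polr2j (17 and 5) and Tcea2 (16 and 1) stand out among them, while Polr3g (12 and 11) was as high in both libraries.

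Several windows hold more than the gene itself. An opposite-strand TSS of another protein-coding gene lay in the window of 13 of the 43 genes (30.2%), against 10.99% of all protein-coding genes, for example that of Yipf3 at -26 bp from Polr1c and that of Mblac2 at -404 bp from Polr3g. The genes with such a neighbour had 311 Zfp322a and 201 IgG reads, a pooled fold of 1.45 (1.21 to 1.73), and those without 573 and 312, a fold of 1.72 (1.49 to 1.98). All 4 genes that passed were among the 30 of 43 genes without such a neighbour, and 2 of the 9 genes with a putative binding site, Polr2h and Supt6h, had one. The difference between genes with and without a neighbour was not tested. Reads between divergent TSSs cannot be told apart by gene.

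The promoters differed from those of all genes in median sequence make-up, which the choice of the genes had not used. In the 250 bp before the TSS the median GC content was 62.4% (range 45.6 to 82.0%), against 54.8% of all protein-coding genes. At the median the CpG dinucleotide was found at 0.812 times the number expected from the base composition, against 0.512 for all genes. This ratio ran from 0.0778 at Ell3 to 1.11 at Supt16h, and was 0.116 at Tcea2. Promoters rich in CpG, called CpG islands, are typical of genes that most cells use. GGGCGG was present in 32 of 43 promoters (74.4%, against 40.8% of all), CCGGAAG, which Ets family factors bind, in 11 (25.6%, against 8.47%), and TCGCGAGA in 3, Polr2e, Supt4h1 and Supt5h (6.98%, against 1.16%). CCAAT was present in 23.3% (all: 35.0%), TATAAA in 4.65% (all: 12.3%), CACGTG in 9.30% (all: 6.52%), CATGCGC in 6.98% (all: 3.86%) and ATGGCG, the core of Yy1 sites, in 9.30% (all: 6.26%). The first motif that the study derived from its binding sites was found in 8 promoters (18.6%, against 14.0% of all), among them those of Polr2a and Polr2j but not that of Polr3e. The B box letters GTTCGAANC were in 1 of the 43 promoters, that of Polr3e, and in 40 of all 22359 (0.179%). The shares were not compared at equal GC content, and their relation to the reads was not tested. All shares count a match on either strand, and the letters searched do not contain one another. Composition and matches were taken before the TSS used for counting reads. For Tcea2 this is not the stretch printed above, and before its counting TSS neither GGGCGG nor CACGTG was found.

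GC content also moved with the fold of all genes. Over 10 equal groups of protein-coding genes ordered by the GC content of the window, the pooled fold went from 0.859 in the group with the lowest GC to 1.51 in the sixth and was 1.43 in the highest. Of the 43 genes 41 lay in the fourth to the tenth group, where the pooled fold was between 1.43 and 1.51. Scaled by promoters of the same GC content, the median fold of the 42 tested genes was 1.10, beside 0.972 over all tested genes, and none passed (adjusted p from 0.295 to 0.507 at the 4 genes in the exact binomial test).

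Other genes of the same machinery, which the naming rule leaves out, were taken from lists chosen by function. Of 41 genes 40 were tested, 14 had a fold of at least 2 (35.0%), 4 passed the exact binomial test, and 13 had a putative binding site (31.7%), with a median fold of 1.63. The shares over all protein-coding genes were 23.7%, 5.09% and 11.2%. Among the pausing and elongation genes 10 of 20 had a fold of at least 2 and 2 of 20 passed. Among those that passed was Whsc2, a subunit of the pausing factor NELF, with 33 and 10 and a fold of 3.08. Hexim1, which holds P-TEFb inactive, had 42 and 17 reads, a fold of 2.31 with an adjusted p of 0.0507 in the exact binomial test, just above the threshold.

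Of 10 Pol III initiation genes 3 had a fold of at least 2 (23.7% of all tested genes) and 2 passed (5.09% of all). Maf1, the repressor of Pol III, held 49 Zfp322a and 15 IgG reads, a fold of 3.05 (1.68 to 5.86) with an adjusted p of 0.00538 in the exact binomial test. Brf1, a subunit of the initiation factor TFIIIB, held 39 and 15, a fold of 2.43 with an adjusted p of 0.04998 in the same exact test, just under the threshold, while Brf2 held 9 and 15, a fold of 0.560 (0.216 to 1.37). For Pol III the genes that passed against the library totals were thus Polr3e, Brf1 and Maf1. Brf1 and Maf1 were not followed through the alternative ways of counting and scaling. Of the Pol I initiation genes 1 of 5, Taf1d, had a fold of at least 2 and 0 passed, with 1 at an unadjusted p under 0.05 in the exact test. The Pol I and Pol III subunits with other symbols (Znrd1, Twistnb, Cd3eap and Crcp) had folds from 1.08 to 1.49, and Polrmt, the mitochondrial polymerase, had a fold of 1.15.

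**Figure D5:**
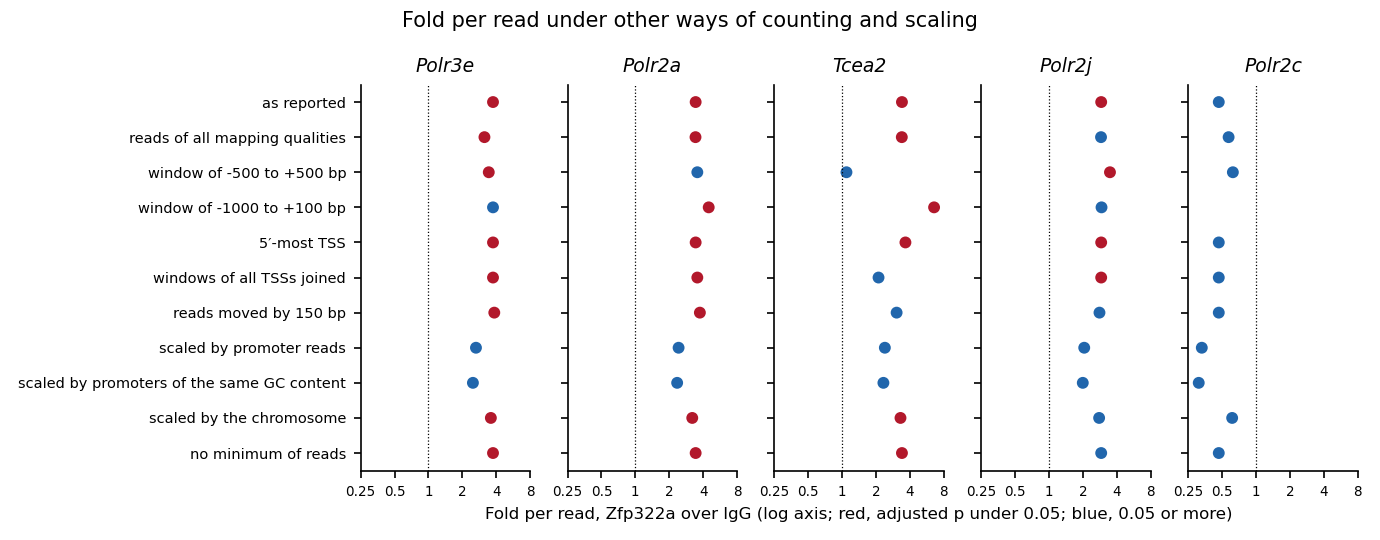
Fold per read, Zfp322a over IgG (horizontal log axis), of the 4 genes that passed and of Polr2c under each way of counting and scaling (vertical axis), in red where the adjusted p of the exact binomial test was under 0.05. Folds stayed above 1 at the 4 genes under all settings, down to 1.09 at Tcea2 within 500 bp of the TSS, and below 1 at Polr2c under the 10 settings in which it was tested.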

How the data were processed

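The authors aligned both libraries to mm9. What they deposited for each aligned read was its position, strand and mapping quality score. The submitters' processing notes name CASAVA 1.4, BWA and Partek 6.6. The authors also deposited the reads of numbered regions of their peak detection, which served as an alternative to the rebuilt sites and as a comparison. The deposited mapping quality score was used to keep reads with a score of at least 25, 80.0% of 5187475 mapped reads in the Zfp322a library and 80.1% of 4843481 in the IgG library. Reads were counted by 5′ end within 1000 bp of 1 TSS per gene (GENCODE vM1, the mm9 build; the TSS with most protein-coding transcripts within 100 bp, ties to the 5′-most) for genes of chromosomes 1 to 19, X and Y.

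The fold per read is the ratio of Zfp322a to IgG reads divided by the ratio of library totals, with an exact Clopper-Pearson interval of 95%. It was tested with the exact conditional binomial test, two-sided, with Benjamini-Hochberg adjustment over all protein-coding genes with at least 10 reads. For putative binding sites an IgG height of 0 was taken as 1, and stretches at most 300 bp apart were joined, giving 3875 sites in the genome; the strand separation test of the authors was not applied. Sequences were read from the mm9 genome in the same release as the annotation. PCR copies cannot be told from separate molecules, so intervals of folds and floors (3 counts) cover counting error only. The interval of the median fold was taken from the ranked folds of the genes.

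Values are given for every member with an adjusted p under 0.05 or a putative binding site, for the genes of the largest and the second largest subunits, for Polr2j, Polr3e and Tcea2, and for the 3 lowest folds (Polr2c, Polr3a and Supt4h1); others named were chosen to describe their families after their values were seen. The members, lists and tests were chosen with earlier results of these data known. Of the other lists, Cdc73 has 2 gene entries, and Taf1a had no entry. Alternatives changed the mapping quality, window, TSS, read position, scaling, minimum of reads and site criteria. Tools were samtools 1.23.1, pysam 0.24.0, scipy 1.17.1, pandas 2.3.3 and numpy 2.4.6 under Python 3.11.15. The scripts were tested on simulated data. Single values of 2 genes of these lists are not reported here.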

Additional observations from a re-analysis of the deposited data

How the results depend on the processing

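No paired analysis was possible because each antibody has 1 library, and no replicate could be left out. Alternative windows change which genes have enough reads to be tested. The number of tested genes with a fold of at least 2 was 17 within 500 bp of the TSS (41.5%, all genes 32.8%), 7 when scaled by promoter reads (16.7%, all 8.34%) and 6 when scaled by promoters of the same GC content (14.3%, all 8.69%), against 11 as reported (26.2%, all 23.7%). The number higher at an adjusted p under 0.05 was 2 with the window from -1000 to +100 bp, 2 with reads moved by 150 bp and 0 under both promoter scalings, against 4, and among all genes it fell from 811 to 243, 745, 82 and 70. The number with a fold of at most 0.5 was 0 with all mapping qualities (all genes 3.73%), within 500 bp (3.43%) and with the chromosome scaling (3.29%). It was also 0 with the window from -1000 to +100 bp (all 3.92%), in which Polr2c had too few reads to be tested. This number was 2 when scaled by promoter reads (4.76%, all 10.9%) or by promoters of the same GC content (4.76%, all 10.8%). With no minimum of reads it was 2 (4.65%, all 11.4%), against 1 as reported (2.38%, all 3.36%). Scaled by promoter reads, the median fold was 1.13 over the tested genes, 1.11 for Pol I and 1.13 for the elongation group, and with the same GC content it was 1.10 for each. Scaling by promoter reads divides every fold by the same number, the pooled excess at promoters. A putative binding site was found at 17 genes with a fold of heights of at least 2, at 4 with at least 5 and at 4 from the deposited regions, against 9.

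Of the 4 genes that passed, Polr2j lost the call under 7 of the 10 alternatives (folds from 1.99 to 3.47), Tcea2 under 5 (1.09 to 6.54), and Polr2a and Polr3e under 3 each (2.35 to 4.48 and 2.48 to 3.84). No called fold changed direction. Counts near 30 reads per gene limit single genes, and folds under about 3 could not pass at most of them.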
